A study of Mus musculus with 9 samples.

Results

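A set of 10 haematopoietic transcription regulators, from the GATA, RUNX, GFI1, MYB and TAL1 circuits that surround PU.1, was followed in mouse acute myeloid leukaemia cells in which PU.1 was suppressed, restored and suppressed again. The 10 genes were taken by symbol through their Entrez numbers from a count table of 27179 entries: Gata1, Gata2, Zfpm1, Runx1, Runx3, Myb, Gfi1, Gfi1b, Tal1 and Lmo2. All 10 were found, and 9 of them had enough reads to be among the 12004 genes tested. The cells were AML246, a C57BL/6 line described by its depositors as p53-/- and carrying a short hairpin RNA (shPU.1) against PU.1, the protein of the gene Spi1. Cells were cultured with IL3, and clones 1, 2 and 4 each grew from a single sorted cell. Every clone gave 1 library in each of 3 states, so each group holds 3 libraries. The untreated cells were sorted as GFPhigh. The doxycycline cells had 14 days of the drug (Dox) and were sorted as GFPoff, and the washed cells had 14 days of the drug followed by 14 days without it and were sorted as GFPhigh. All groups share the p53-/- background, the hairpin construct and IL3, all clones come from a single line, and the drug and the GFP gate change together with Spi1. P-values from group means therefore rest on the spread between clones of that line. Where the clone is fitted as a block, they rest on how far the change differs among these clones. Effects of the drug itself and of the hairpin cannot be told apart.

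GATA1 and GATA2 are zinc finger factors that bind the sequence core GATA. GATA2 acts in progenitors and mast cells, and GATA1 acts in red cell, megakaryocyte, eosinophil and mast cell development. FOG1 (Zfpm1) is a cofactor of GATA1 in the red cell and megakaryocyte lineages. RUNX1 and RUNX3 bind DNA with the partner CBFB, MYB sustains progenitor growth, and GFI1 and GFI1B are repressors of the SNAG family that work through the LSD1 and CoREST complex. TAL1 and LMO2 form a complex with GATA factors, an E protein and LDB1. GATA factors and PU.1 are known to bind each other and to restrain each other's activity, and GFI1 is a known antagonist of PU.1 in the choice between granulocyte and monocyte fates.

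Spi1 served as the check of the hairpin. Its level, in CPM (counts scaled to the library total) on TMM-scaled library sizes, was 23.7 to 48.1 in untreated cells, 156 to 197 in doxycycline and 23.9 to 52.0 after washing, so the doxycycline group lay above both others without overlap. Library totals were 7408118 to 9803258 counts, and 1 count was worth 0.0882 to 0.183 CPM. One washed library stood apart from its clone. The root mean square log2 difference between the untreated and washed libraries was 0.953 in clone 1, against 0.342 in clone 2 and 0.300 in clone 4. Washed clone 1 was equally far from doxycycline clone 1 (0.954), and no library lay nearer to it than 0.953. In untreated clone 1 a single entry without a symbol in the tables used took 22.0% of all counts, and its TMM factor was 0.7365. Results that rest on washed clone 1 are given with and without it, a choice made after its values were seen. Genes of other lineages were present in part. In untreated cells 18 mast cell and basophil genes summed to 1610 to 2000 CPM, 19 megakaryocyte and platelet genes to 1230 to 2050 CPM and 13 red cell genes to 18.0 to 27.3 CPM. Among the defining markers, Rhag (red cells), Pf4 and Treml1 (platelets) and Fcer1a (mast cells) had 0 counts in all libraries, whereas Cpa3 (mast cells) and Itga2b (megakaryocytes) were well read. The neutrophil gene S100a9 stood at 3.46 to 15 CPM in untreated cells and 324 to 993 CPM in doxycycline. Epx, the eosinophil peroxidase, stood at 7430 to 10900 CPM in untreated cells, far above Mpo (myeloperoxidase) at 50.5 to 82.7 CPM. In bulk RNA, fewer cells of one kind and less RNA per cell cannot be told apart.

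Windows of 300 bases around the annotated start sites (250 before, 50 after; RefSeq, GRCm38.p6) were held by the promoter table for 9 of the 10 genes, in 14 windows. They are shown for Gata1 and Gata2, whose levels moved most alike, and for Gfi1b, the only tested gene with a GATA match in its window. The words searched were short, and they were looked for on both strands: GATAA for GATA factors, GAGGAA (the PU box), TGTGGT for RUNX, AACTG for MYB and AAATCA for GFI1. Capitals mark the matches, each of which lay on the printed strand. The windows are Gata1 at chrX:7967861-7968160 (minus strand), Gata2 at chr6:88193641-88193940 (plus strand) and Gfi1b at chr2:28621933-28622232 (minus strand).
Gata1: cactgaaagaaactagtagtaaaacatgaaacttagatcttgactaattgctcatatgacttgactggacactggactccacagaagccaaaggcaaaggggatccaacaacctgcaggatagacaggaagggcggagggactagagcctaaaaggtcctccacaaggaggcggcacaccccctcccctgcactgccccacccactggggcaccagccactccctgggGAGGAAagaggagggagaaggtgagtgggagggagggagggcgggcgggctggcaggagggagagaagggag
Gata2: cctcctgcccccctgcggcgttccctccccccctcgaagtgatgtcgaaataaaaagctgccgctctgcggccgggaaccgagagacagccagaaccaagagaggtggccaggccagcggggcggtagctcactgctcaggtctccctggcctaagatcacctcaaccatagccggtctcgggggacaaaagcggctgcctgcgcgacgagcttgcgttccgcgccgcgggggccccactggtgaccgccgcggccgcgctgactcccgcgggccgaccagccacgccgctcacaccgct
Gfi1b: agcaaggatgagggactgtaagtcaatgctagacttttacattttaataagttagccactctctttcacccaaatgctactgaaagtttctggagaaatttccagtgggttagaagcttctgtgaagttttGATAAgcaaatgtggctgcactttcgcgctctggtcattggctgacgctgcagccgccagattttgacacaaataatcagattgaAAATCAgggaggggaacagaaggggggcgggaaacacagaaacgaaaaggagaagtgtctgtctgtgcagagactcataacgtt
The Gata1 window held the PU box word 22 bases before the start site, the Gata2 window shown held none of the words searched, and the Gfi1b window held GATAA 119 bases and AAATCA 34 bases before the start site. Among all 32851 windows of that length, 25.4% held GATAA, 28.3% the PU box word, 16.8% the RUNX word, 44.8% the MYB word and 14.0% the GFI1 word. The PU box word also occurred 1 time in 1 window each of Runx1 and Tal1. The RUNX word occurred 2 times in 1 window each of Runx1 and Runx3. The MYB word occurred 3 times in 1 window of Gfi1 and 2 times in 1 window each of Runx1 and Tal1. A match describes the letters in the window and says nothing of binding.

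Levels compared between genes were divided by gene length (CPM per kb). Gata2 was the most abundant of the 10 in untreated cells, at 408 ± 121 CPM per kb (SD, n = 3 here and below), and its lowest untreated library (277) lay above the highest of Myb. Myb followed at 81.8 ± 17.2, then Gata1 at 56.9 ± 9.26, Gfi1 at 43.0 ± 7.52 and Runx3 at 36.2 ± 6.77, and neighbours among these 4 overlapped between libraries. Zfpm1 (14.9 ± 1.13), Runx1 (13.4 ± 3.64), Lmo2 (7.87 ± 2.56) and Gfi1b (7.05 ± 2.72) formed a lower tier in which neighbours also overlapped. In doxycycline the mean of Gata2 was 196 ± 148 CPM per kb, and its libraries overlapped those of Myb (91.7 ± 22.5). Tal1 was essentially unread: 0 counts in 8 libraries and 1 count in washed clone 1, where 3 counts would be 0.265 to 0.550 CPM depending on the library. Its relative Lyl1, which can take the place of TAL1 in the complex, stood at 98.5 to 131 CPM in untreated cells.

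**Figure D1:**
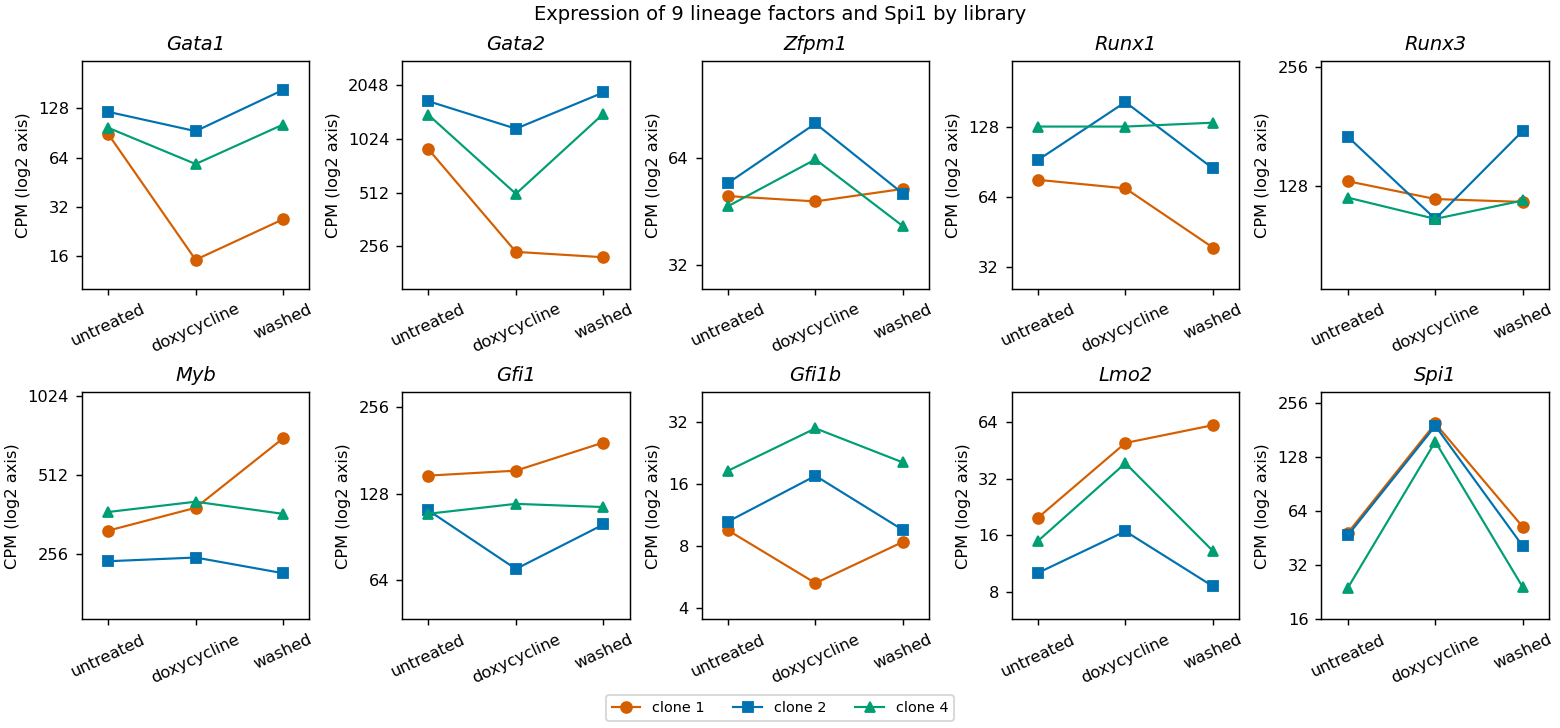
CPM (log2 axis) of the 9 tested lineage factors and Spi1 in untreated, doxycycline and washed cells; each line joins the 3 libraries of 1 clone. With doxycycline Gata1, Gata2 and Runx3 were lower and Myb and Lmo2 higher in every clone, beside 63.8% of all tested genes with one direction. In washed clone 1 Gata2 (222 CPM) and Lmo2 (61.4 CPM) stayed nearer the doxycycline than the untreated level, while Spi1 was back at 52.0 CPM. Myb (708 CPM) and Runx1 (38.7 CPM) of that library lay outside both levels of the clone.

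The first comparison asked which of these factors change in doxycycline, where PU.1 returns. Gata2 (Entrez gene 14461, chromosome 6, 88193891 to 88207032 on GRCm38) was read at 898, 1670 and 1400 CPM in the untreated libraries of clones 1, 2 and 4. The doxycycline libraries gave 238, 1170 and 504 CPM. It was lower in each clone, at 0.265, 0.699 and 0.359 of the untreated level, although the groups overlapped because clone 2 in doxycycline exceeded clone 1 untreated. In the fit by group means the difference missed the threshold of 0.05 (log2 fold change -1.06 ± 0.74 SE, edgeR quasi-likelihood test, adjusted p = 0.396). With the clone as a block, Gata2 fell (log2 fold change -1.36 ± 0.42 SE, adjusted p = 0.0465), and with the block and without washed clone 1 it fell with adjusted p = 0.00594 (log2 fold change -1.29 ± 0.26 SE).

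Gata1 (Entrez gene 14460, chromosome X, 7959260 to 7976663) gave 89.5, 122 and 97.5 CPM in the untreated libraries and 15.2, 92.9 and 58.5 CPM in doxycycline. Every clone was lower, clone 1 most (0.170 of its untreated level, against 0.763 and 0.601 in clones 2 and 4), and 1 doxycycline library exceeded an untreated one. Neither fit on all 9 libraries called it, with a log2 fold change of -0.89 ± 0.68 SE by group means (adjusted p = 0.440) and of -1.29 ± 0.42 SE with the block (adjusted p = 0.0577). With the block and without washed clone 1 Gata1 fell (log2 fold change -1.17, adjusted p = 0.0327). Zfpm1, the FOG1 cofactor of GATA1, stood at 50.1, 54.5 and 46.9 CPM in untreated cells and 48.4, 80.3 and 63.6 CPM in doxycycline. It was higher in clones 2 and 4 and not in clone 1, and the groups overlapped (log2 fold change 0.34 ± 0.21 SE, adjusted p = 0.322).

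Lmo2, the LIM-only bridge between TAL1 or LYL1 and GATA factors, went the other way. Its level was 19.8, 10.1 and 14.9 CPM untreated and 49.4, 16.8 and 38.6 CPM in doxycycline. Each clone was higher, by 2.49, 1.67 and 2.58 times, and the groups overlapped only through clone 2. In both fits on all libraries Lmo2 stayed short of a call, at 1.23 ± 0.70 SE on the log2 scale by group means (adjusted p = 0.294) and 1.14 ± 0.38 SE with the block (adjusted p = 0.0625). It rose with the block once washed clone 1 was left out (log2 difference 1.16 ± 0.17 SE, adjusted p = 0.00173).

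Among the RUNX genes, Runx3 stood at 132, 171 and 120 CPM untreated and 119, 106 and 106 CPM in doxycycline. It was the single member whose groups did not overlap, beside 38.9% of all tested genes in this comparison (20.4% higher, 18.5% lower), and its difference was small (log2 fold change -0.36 ± 0.21 SE, adjusted p = 0.322). Runx1, a common target of leukaemia mutations, differed by clone: 75.6, 91.9 and 128 CPM untreated and 69.5, 163 and 128 CPM in doxycycline. It was 1.77 times higher in clone 2, at a ratio of 1.00 in clone 4 and of 0.920 in clone 1, and the pooled difference was within the spread (log2 fold change 0.29 ± 0.44 SE, adjusted p = 0.723; -0.05 without clone 2).

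Myb, the progenitor factor, was at 315, 241 and 371 CPM untreated and 385, 249 and 406 CPM with the drug (log2 difference 0.16 ± 0.40 SE, adjusted p = 0.827), slightly higher in each clone by less than the spread. Gfi1 stood at 148, 112 and 109 CPM untreated and 154, 70.0 and 118 CPM with the drug (log2 difference -0.11 ± 0.33 SE, adjusted p = 0.866), and its sign turned to 0.19 with scaling by library size alone. The clones disagreed on Gfi1: clone 2 was lower and the others slightly higher. Gfi1b, its relative of the red cell and megakaryocyte lineages, stood at 9.54, 10.5 and 18.5 CPM untreated and 5.29, 17.5 and 29.7 CPM in doxycycline, lower in clone 1 and higher in clones 2 and 4 (log2 fold change 0.44 ± 0.59 SE, adjusted p = 0.675).

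Of the 9 tested members, 0 passed the threshold in the fit by group means, where 10.9% of the 12004 tested genes did (6.57% higher, 4.35% lower). At an unadjusted p of 0.05 the members passing were also 0 by edgeR, beside 27.2% of all genes, and 0 by DESeq2, beside 29.1%. With the block 3 passed at that level, beside 39.7%. With the clone as a block 1 passed, Gata2, beside 24.8% of all genes (11.7% lower). With the block and without washed clone 1 the members called were 3, Gata1, Gata2 and Lmo2, beside 38.6% of all genes. A single direction in all 3 clones was seen for 5 members, 3 lower (Gata1, Gata2 and Runx3) and 2 higher (Myb and Lmo2), beside 63.8% of all tested genes (31.8% lower, 32.1% higher), so that share is close to the background. The median log2 fold change of the 9 was 0.16, against 0.00 over all tested genes, and scaling by library size alone moved the latter to 0.23.

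**Figure D2:**
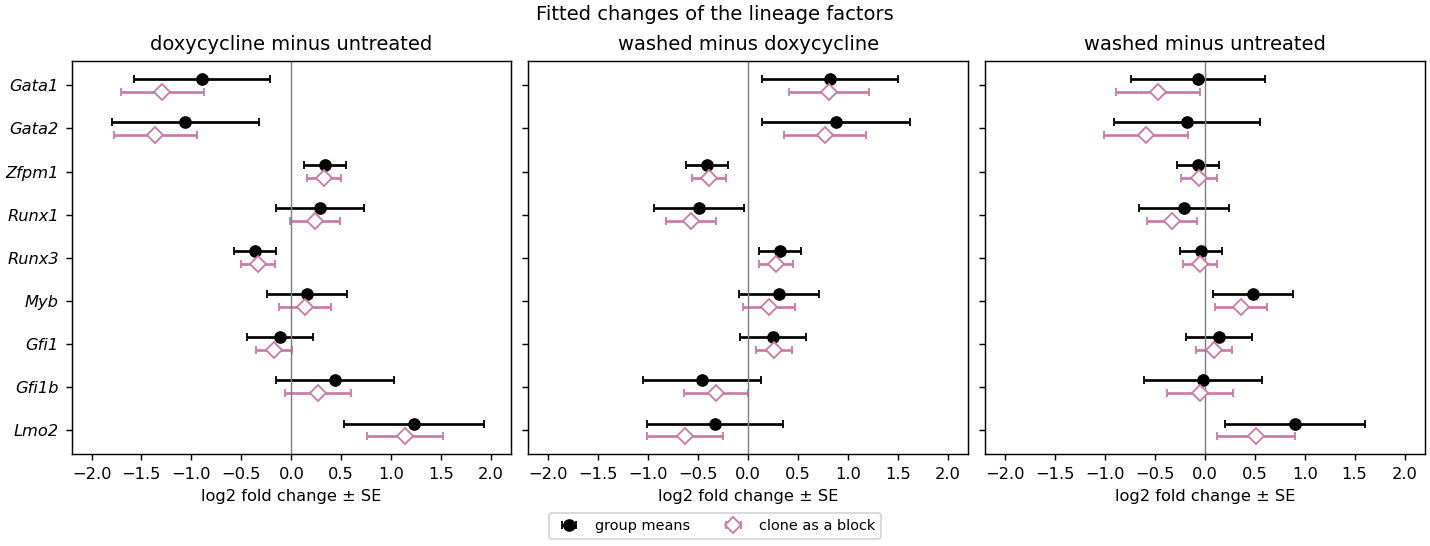
Fitted log2 fold changes ± SE of the 9 tested lineage factors in the 3 comparisons, from group means (filled circles) and with the clone as a block (open diamonds), over 3 libraries per group. Gata1 and Gata2 lie below 0 and Lmo2 above 0 in doxycycline against untreated, and the block narrows the SE of Gata2 from 0.74 to 0.42.

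The second comparison asked whether the factors move back when the drug is withdrawn and PU.1 is suppressed again. In clones 2 and 4 Gata2 went from 1170 and 504 CPM in doxycycline to 1870 and 1420 CPM after washing, 1.60 and 2.82 times higher. In clone 1 it did not return: 238 CPM in doxycycline and 222 CPM after washing, 0.247 of the untreated level. Over all 9 libraries Gata2 was not called (washed minus doxycycline, 0.88 ± 0.74 SE on the log2 scale, adjusted p = 0.498, and 0.77 ± 0.41 SE with the block, adjusted p = 0.209), and it rose with the block and without washed clone 1 (log2 fold change 1.21 ± 0.29 SE, adjusted p = 0.0153).

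Gata1 was higher after washing in all 3 clones, at 26.9, 166 and 102 CPM against 15.2, 92.9 and 58.5 CPM in doxycycline, ratios of 1.77, 1.78 and 1.74. The ratios were alike, yet in clone 1 the washed level was 0.300 of the untreated one, because it had fallen furthest, and Gata1 was not called in any of the fits run (log2 fold change 0.82 ± 0.68 SE, adjusted p = 0.493, lowest adjusted p over the alternatives 0.0613). Lmo2 stood at 8.58 and 13.2 CPM in washed clones 2 and 4, 0.511 and 0.343 of the doxycycline level. In washed clone 1 it was 61.4 CPM, above the 49.4 CPM of doxycycline. Over all libraries Lmo2 was within the spread (log2 fold change -0.33 ± 0.68 SE, adjusted p = 0.813), and without washed clone 1 it fell, without the block (log2 fold change -1.68, adjusted p = 0.0463) and with it (-1.32, adjusted p = 0.00326).

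Zfpm1 stood at 52.5, 50.9 and 41.2 CPM after washing, lower than in doxycycline in clones 2 and 4 (log2 fold change -0.41 ± 0.21 SE, adjusted p = 0.244), and it fell with the block once washed clone 1 was left out (-0.56, adjusted p = 0.0327). Runx1 stood at 38.7, 84.6 and 133 CPM after washing, with washed clone 1 the lowest of the 9 libraries (log2 fold change -0.49 ± 0.45 SE, adjusted p = 0.535). Runx3 stood at 117, 177 and 118 CPM (log2 fold change 0.32 ± 0.21 SE, adjusted p = 0.389). These 3 genes had overlapping groups.

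Myb, at 708, 217 and 365 CPM after washing, was 1.84 times its doxycycline level in clone 1 and 0.872 and 0.899 of it in clones 2 and 4. Its pooled difference (log2 fold change 0.31 ± 0.40 SE, adjusted p = 0.678) turned to -0.25 without washed clone 1. Gfi1 stood at 193, 100 and 115 CPM (log2 fold change 0.25 ± 0.33 SE, adjusted p = 0.684; -0.09 without washed clone 1), and Gfi1b at 8.38, 9.56 and 20.3 CPM (log2 fold change -0.46 ± 0.59 SE, adjusted p = 0.680). In both GFI1 genes the washed library of clone 2 had returned to near its untreated value.

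Of the 9 tested members, 0 were called in washed against doxycycline, with or without the block, where 9.66% of all tested genes were called without it (3.64% higher, 6.02% lower) and 22.9% with it (10.4% higher, 12.4% lower). The groups of 26.4% of all genes did not overlap, and those of 0 members. At an unadjusted p of 0.05, 0 members passed without the block (26.0% of all genes did), 1 with it (37.7%) and 0 by DESeq2 (28.1%). Without washed clone 1 the fit by group means called 1 member, Lmo2, beside 14.8% of all genes, and the blocked fit called 3, Gata2, Zfpm1 and Lmo2, beside 31.2%. Gata1 was the only member higher in all 3 clones, and none was lower in all 3, beside 28.1% of all genes higher, 27.5% lower and 55.6% in one direction or the other. This comparison shares the doxycycline libraries with the first, so a fall there and a rise here are not independent.

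**Figure D3:**
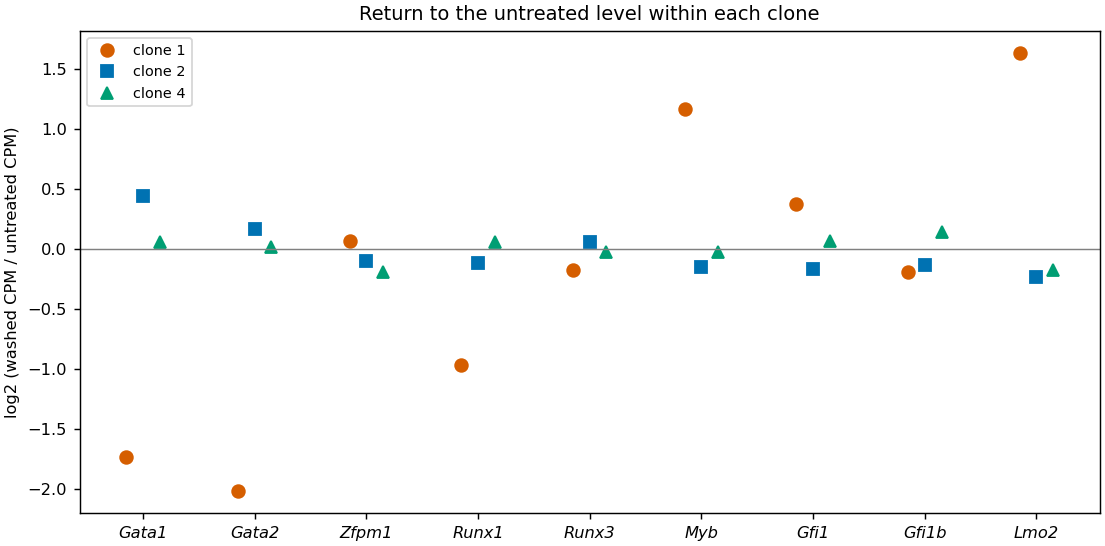
The log2 ratio of washed to untreated CPM in each clone for the 9 tested lineage factors; 0 marks a full return. Clones 2 and 4 lie between ratios of 0.851 (Lmo2, clone 2) and 1.36 (Gata1, clone 2), whereas clone 1 reaches 0.247 for Gata2 and 3.10 for Lmo2.

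The third comparison, washed against untreated, asked whether a cycle of PU.1 restoration leaves a trace. In clone 4 every tested member was within ratios of 0.878 (Zfpm1) and 1.10 (Gfi1b) of its untreated level, and in clone 2 within 0.851 (Lmo2) and 1.36 (Gata1). Clone 1 behaved otherwise: Gata2 was at 0.247, Gata1 at 0.300 and Runx1 at 0.513 of the untreated level, while Lmo2 was at 3.10 and Myb at 2.25 times that level. Zfpm1 (1.05), Runx3 (0.887), Gfi1b (0.878) and Gfi1 (1.30) of clone 1 stayed nearer to it. By edgeR 0 of the 9 members and 0 of the 12004 genes were called, with or without the block and also by DESeq2. At an unadjusted p of 0.05, 38 genes and 0 members passed. Groups did not overlap for 2.36% of all genes (1.31% higher, 1.05% lower) and 0 members, and 18.1% of all genes (9.21% higher, 8.89% lower) but 0 members had one direction in all clones. The member with the largest fitted difference, Lmo2, had a log2 fold change of 0.90 ± 0.70 SE (adjusted p = 1) that turned to -0.45 without washed clone 1. Since clone 1 has 1 library per state, its departure has no replicate.

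Other gene groups differed in washed clone 1 as well. The summed CPM of 18 mast cell and basophil genes was 838 there, against 1710 to 2050 in the other washed libraries and 1610 to 2000 in untreated cells. The 7 early granulocyte genes summed to 4210 CPM, against 2360 and 3170 in the other washed libraries, with Mpo at 1720 CPM against 50 and 65.1. The 10 genes known to be repressed by GFI1 summed to 82.8 CPM, against 656 and 852. The part of these values in the Gata, Lmo2 and Myb levels of that library was not tested.

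Because PU.1 and GATA factors are known to oppose each other, their levels were set side by side in each library. Per kb, Gata2 was 7.68, 14.7 and 24.3 times Spi1 in untreated clones 1, 2 and 4 and 0.495, 2.51 and 1.33 times in doxycycline. After washing the ratio was 1.75, 19.0 and 24.5, so clones 2 and 4 regained or passed the untreated ratio and clone 1 did not. Gata1 was 1.37 to 3.03 times Spi1 in untreated cells, 0.0567 to 0.358 in doxycycline, and 0.381, 3.01 and 3.14 in washed clones 1, 2 and 4. Clone 1 had the lowest Gata2 to Spi1 ratio in all 3 states. Gata2 exceeded Gata1 in each of the 9 libraries, by 4.60 to 8.73 times per kb. These ratios contain Spi1, the target of the hairpin, and are given as a description.

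**Figure D4:**
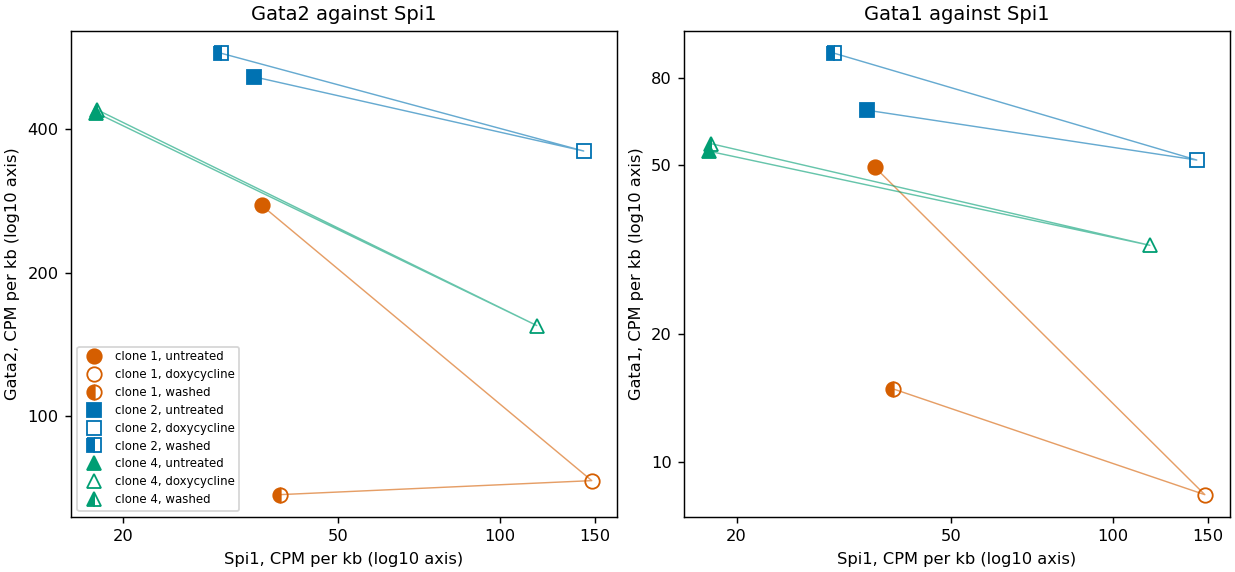
Gata2 (left) and Gata1 (right) against Spi1, in CPM per kb on log10 axes; colour and shape give the clone, filled, open and half-filled symbols the untreated, doxycycline and washed libraries. In clones 2 and 4 the washed library lies beside the untreated one, whereas washed clone 1 has the Spi1 level of untreated cells (39.0 against 36.1) and Gata2 at 68.5 against 277.

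The level of several members was ordered by clone, although the test of the clone terms below called none after adjustment. Mean CPM over the 3 states was 453, 1570 and 1110 for Gata2 and 43.9, 127 and 85.9 for Gata1 in clones 1, 2 and 4, so clone 1 was lowest for both. Lmo2 ran in reverse, at 43.5, 11.8 and 22.2 CPM, as did Gfi1, at 165, 94.3 and 114 CPM. Without washed clone 1, the clone 1 mean was 568 CPM for Gata2, 52.3 CPM for Gata1, 34.6 CPM for Lmo2 and 151 CPM for Gfi1. The order among the clones was the same, but this clone 1 mean covers untreated and doxycycline only, and the other clones all 3 states. On the log2 scale the untreated libraries alone spanned 0.44 for Gata1, 0.89 for Gata2, 0.96 for Lmo2 and 0.44 for Gfi1. The clone means over the 3 states spanned 1.88, 2.09, 1.77 and 0.82. Of the tested members only Runx3 was wider in untreated cells (0.50 against 0.36). Myb was at 469, 236 and 380 CPM, but its clone 1 mean was 350.0 CPM without the washed library, below clone 4. Gfi1b was highest in clone 4 (22.8 CPM, against 7.74 and 12.5), and Runx1 was lowest in clone 1 (61.3 CPM, or 72.6 without the washed library, against 113 and 130).

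In a model with group and clone, edgeR's test of the clone terms called 0 of the 9 members and 0 of the 12004 genes after adjustment, although 7 members and 4501 genes (37.5%) had an unadjusted p under 0.05. Adjusted p of those 7 ran from 0.0593 (Gfi1b and Lmo2) to 0.0903 (Myb), and Zfpm1 (0.352) and Runx3 (0.231) were higher. DESeq2's likelihood ratio test called the 7 (Gata1, Gata2, Runx1, Myb, Gfi1, Gfi1b and Lmo2), beside 23.0% of all genes. Without washed clone 1 edgeR called 4 members, Gata2, Myb, Gfi1b and Lmo2, beside 14.6% of all genes. With clone 1 left out altogether, clones 2 and 4 differed in 5 members, Gata1, Gata2, Myb, Gfi1b and Lmo2, beside 25.3% of all genes.

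The other genes of these families were mostly silent. Of 13 listed, 5 were tested. Gata4, Gata6, Lmo1 and Lmo3 had 0 counts in all libraries, and Gata3, the T cell member, stayed at or below 0.550 CPM. Runx2 stood at 105 to 127 CPM in untreated cells and 114 to 120 CPM in doxycycline (log2 fold change 0.03, adjusted p = 0.947). Lmo4, a LIM-only relative of Lmo2, stood at 62.9, 89.5 and 86.1 CPM untreated and 42.3, 32.9 and 38.2 CPM in doxycycline. It was lower in each clone and without overlap, beside 18.5% of all genes lower without overlap. It was not called by group means (-1.07 on the log2 scale, adjusted p = 0.0609) and fell with the block (adjusted p = 0.0315), opposite to Lmo2 in sign. By group means 0 of these 5 passed in any comparison. With the block 1 fell in doxycycline and 1 rose after washing, Lmo4 in each case (adjusted p = 0.0423 for the latter). Beside these, 11.7% of all genes fell and 10.4% rose in the same blocked fits.

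All 27 listed partners and cofactors were tested, and in doxycycline 3 rose and 0 fell (5 and 1 with the block), a share of 11.1% higher beside 6.57% of all genes. With scaling by library size alone the calls over all genes were 796 higher and 257 lower, against 789 and 522. Cbfa2t3 (ETO2, a corepressor within the TAL1 and GATA complex) went from 56.3, 48.0 and 83.3 CPM to 117, 127 and 145 CPM in clones 1, 2 and 4 (log2 fold change 1.05, adjusted p = 0.0496). Rcor1 (CoREST, which links GFI1 proteins to LSD1) went from 42.2, 38.2 and 36.4 CPM to 67.1, 65.2 and 72.7 CPM (log2 fold change 0.81, adjusted p = 0.0323). Ssbp4, one of the single-stranded DNA binding proteins that accompany LDB1, went from 45.7, 48.5 and 49.7 CPM to 90.8, 72.9 and 82.7 CPM (log2 fold change 0.78, adjusted p = 0.0189). For these 3 genes no doxycycline library overlapped the untreated ones, beside 38.9% of all tested genes without overlap (20.4% higher, 18.5% lower). The direct partners Ldb1 (log2 fold change -0.16, adjusted p = 0.701) and Cbfb (0.25, adjusted p = 0.602) were within the spread. Kdm1a, the LSD1 gene, was lower in each clone, at 74.5, 78.6 and 95.2 CPM untreated and 65.4, 60.1 and 72.1 CPM with the drug, without overlap, and was not called (-0.33, adjusted p = 0.224). In washed against doxycycline 0 of the 27 were called by group means, and 2 rose and 4 fell with the block. Over all genes 10.4% rose and 12.4% fell in that blocked fit. In washed against untreated 0 were called in either fit.

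Genes downstream of these factors did not form one pattern. Their counts in doxycycline stand against 6.57% of all tested genes called higher and 4.35% called lower. Of 10 genes known to be repressed by GFI1, 7 were tested and 0 were called in doxycycline, with or without the block. Their median log2 fold change was 0.02, with 4 positive and 3 negative. With Csf1r, the macrophage growth factor receptor, at 33.9, 38.7 and 16.9 CPM untreated and 6.79, 20 and 13.7 CPM in doxycycline, each clone was lower, yet within the spread (adjusted p = 0.529). Egr2 went the other way in each clone, from 1.83, 4.16 and 1.98 CPM to 2.03, 10.5 and 3.20 CPM, also within the spread (adjusted p = 0.506). Of the 5 tested red cell genes 1 was called lower, the erythropoietin receptor gene Epor, from 6.97, 14.9 and 11.2 CPM to 0.529, 1.98 and 1.74 CPM (log2 fold change -2.98, adjusted p = 0.0208). All 5 had a negative log2 fold change (median -1.56), and 2 fell with the block, beside 11.7% of all genes. In washed against doxycycline all 5 were positive (median 2.12). There 1 was called higher by group means and 3 with the block, beside 3.64% and 10.4% of all genes. The 2 comparisons share the doxycycline libraries. Klf1, a red cell factor and known GATA1 target, stood at 4.32 to 7.34 CPM untreated and 0.971 to 4.07 CPM in doxycycline (adjusted p = 0.197). The 10 tested megakaryocyte and platelet genes gave 4 higher and 0 lower, F2rl2, Itgb3, Itga2b and Thbs1, with Itga2b (the integrin CD41) at 244, 180 and 83.6 CPM untreated and 499, 666 and 457 CPM in doxycycline.

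Mast cell and eosinophil genes, which GATA factors are known to drive, were split. The 10 tested mast cell and basophil genes gave 1 higher and 1 lower, against the same 6.57% and 4.35% of all genes. Kit, the stem cell factor receptor, rose (log2 fold change 1.54, adjusted p = 0.0339), and the chymase gene Cma1 fell (-4.05, adjusted p = 0.0252). Cpa3, the mast cell carboxypeptidase, stood at 1630, 1600 and 1300 CPM untreated and 148, 1090 and 505 CPM in doxycycline, lower in each clone (adjusted p = 0.211, and 0.0362 with the block). Its washed levels were 449, 1620 and 1380 CPM, again below the untreated level in clone 1 alone. Of 9 tested eosinophil genes 4 rose and 1 fell, beside those shares. Alox15 (log2 fold change 5.09, adjusted p = 0.00575), Siglecf, Cd24a and Il5ra were the risers, and Epx was the gene that fell (-1.34, adjusted p = 0.0388). Prg2, the eosinophil major basic protein, stood at 1410, 1640 and 835 CPM untreated and 79.1, 695 and 576 CPM in doxycycline (adjusted p = 0.257).

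For the 3 members with the widest spread over the 9 libraries, the genes with the nearest profiles were sought among the 9095 tested genes whose log2 CPM averaged 3 or more. The measure was the root mean square difference between log2 CPM profiles centred on their means. Nearest to Gata2 were Lat (0.17), an adaptor of T cell and mast cell receptors, Acss2 (0.24), an acetyl-CoA synthetase, and Trpm4 (0.24), a cation channel, against a median of 1.19 over all candidates. Gata1 had C77080 (0.23), Atp13a2 (0.23) and St6galnac3 (0.30) as its nearest profiles, with a median of 1.12, and Gata2 itself was 0.31 away. Lmo2 lay nearest to P2ry2 (0.19), a nucleotide receptor, Ubash3a (0.23) and Pclaf (0.24), with a median of 0.97. Among the members, Lmo2 and Gata2 were 2.05 apart and Myb and Gfi1 0.32 apart. The 9 points share 3 clones and are not independent.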

How the data were processed

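RNA-seq counts of 9 libraries (3 clones in 3 states) were used. Each deposited table lists, per the file headers, an Entrez number, a gene length and a raw read count, which the authors left unnormalized. The submitters' processing notes list mm10, featureCounts, limma 3.22.0, edgeR 3.8.2 and CASAVA 1.8.2. An aligner, an annotation version or a strand setting is not given in the sources used here. For 7 members (Gata1, Gata2, Zfpm1, Runx1, Gfi1b, Tal1 and Lmo2) the locus overlaps a long non-coding gene in RefSeq that has no row of its own in the count table, and without a stated strand setting reads of such genes cannot be told apart. Symbols, coordinates and promoter windows came from RefSeq GRCm38.p6 (mm10), which matched 25275 of 27179 entries; the promoter table held 9 of the 10 members.

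Genes passing filterByExpr (12004) were scaled by TMM and fitted with edgeR 4.0.16 in R 4.3.3 by quasi-likelihood with a mean per group over all 9 libraries. P-values were adjusted over all tested genes (Benjamini-Hochberg), with a threshold of 0.05. SE is the log2 fold change over the square root of F, and a prior count of 2 entered log2 CPM. For clone differences the clone terms of a group plus clone model were tested. The same clone number marks the same clone, so the numbers pair the libraries. Deviations from group means correlated at 0.29 to 0.68 in the 9 same-clone pairs and at -0.69 to 0.32 in pairs of different clones. Centring within groups of 3 pushes the latter below 0 where same-clone pairs lie above it. For the members the blocked value is printed where it changes a call, and for the listed genes only in part. Even the closest libraries, untreated and washed clone 4, differed beyond counting noise (chi-square over degrees of freedom 3.47), so all 9 were kept. Members and lists were chosen with earlier results of these data known. Named were all members, Spi1, up to 4 called genes per list, and the 3 nearest profiles of the 3 most variable members (none being called); other genes named from the lists were picked after their values were seen. Kit and Lyl1 stand in more than 1 list. Of the listed names all matched except Hbb-bt, Ahsp and Clc. Results for neutrophil, monocyte, lymphocyte, early granulocyte and progenitor lists served as marker checks. In doxycycline 11, 2, 0, 0 and 2 of their tested genes rose and 0, 1, 0, 0 and 0 fell by group means, beside 6.57% and 4.35% of all genes. With the block 11, 3, 0, 1 and 2 rose and 1, 1, 1, 3 and 1 fell, beside 13.0% and 11.7%. Other settings tried were scaling by RLE or by library size only, testing without a low-count filter or with a minimum of 5 CPM in 3 libraries, voom in limma 3.58.1, DESeq2 1.42.0, the clone block and leaving out each clone; fits without the washed or untreated library of clone 1 were added after the data were seen. Scripts were tested on simulated data. Figures were drawn with matplotlib 3.10.9.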

Additional observations from a re-analysis of the deposited data

How the results depend on the processing

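In doxycycline against untreated and washed against doxycycline the number of members called was 0 in the main analysis and with scaling by RLE or library size, without or with a stricter filter, with DESeq2, with voom and on leaving out each clone (0 to 0). With all libraries these settings called 6.74% to 17.8% and 5.4% to 16.4% of all genes. The shares were 7.96% and 8.8% without clone 1, and 1.32% and 0.58% without clone 2. Without clone 4 only 0 and 4 of 12069 genes were called, so 0 members says little in the fits without clones 2 and 4. With the clone as a replicate block the number of members called was 1 (Gata2) and 0, beside 24.8% and 22.9% of all genes. With the block and without washed clone 1 it was 3 in each comparison, beside 38.6% and 31.2% of all genes. Without washed clone 1 alone it was 0 and 1, beside 18.4% and 14.8%. In washed against untreated it was 0 throughout, as was the number of all genes called. Between clones the number of members called was 0 in the main analysis, 5 with library size alone (9.5% of all genes called), 6 without a filter (9.46%), 7 with DESeq2 (23.0%) and 4 without washed clone 1 (14.6%). On leaving out each clone it was 0 to 5, beside 25.3% of all genes without clone 1 and 0 without clone 2 or clone 4. The cause of these differences was not tested.

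Signs turned only for differences not called in the main fit, which called no member. For doxycycline against untreated these were Gfi1 (0.19 with library size alone, 0.04 without untreated clone 1, -0.23 to 0.08 on leaving out a clone) and Runx1 (-0.05 to 0.46 on leaving out a clone). For washed against doxycycline, leaving out a clone gave -0.17 to 0.56 for Myb and -1.35 to 0.10 for Lmo2. Gfi1 kept its sign there, at 0.18 to 0.41. Without washed clone 1, Myb was -0.25 (-0.21 with the block) and Gfi1 -0.09, while Lmo2 kept its sign at -1.68 (called). That call of Lmo2 stands beside a turned sign, 0.10, in the fit without clone 4. For washed against untreated, library size alone, which moved the median of all genes to 0.22, gave Gata1 0.05, Zfpm1 0.14, Runx3 0.14, Gfi1b 0.12 and Spi1 0.24, and voom gave Spi1 0.01. Leaving out a clone gave Gata1 -0.55 to 0.28, Gata2 -0.49 to 0.10, Runx3 -0.10 to 0.02 and Myb -0.07 to 0.74. It gave Gfi1 -0.04 to 0.26, Gfi1b -0.16 to 0.04, Lmo2 -0.20 to 1.24 and Spi1 -0.13 to 0.09. Runx1 kept its sign there, at -0.44 to -0.02. Without washed clone 1 the values were Gata1 0.37, Gata2 0.31, Runx1 0.14, Runx3 0.06, Myb -0.09, Gfi1 -0.19, Gfi1b 0.21 and Lmo2 -0.45. Spi1 kept its sign in that fit, at -0.29. With the block as well, Runx3 was 0.06, Myb -0.05 and Lmo2 -0.16. Without untreated clone 1 Spi1 was 0.15, while Gfi1 kept its sign at 0.30.

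Over all genes, doxycycline against untreated gave 1311 calls, 2138 by DESeq2, 2976 with the block, 967, 159 and 0 without clones 1, 2 and 4, 2258 without washed clone 1 and 347 without untreated clone 1. Washed against doxycycline gave 1160, against 648 with library size alone, 1967 by DESeq2, 2744 with the block, 1069, 70 and 4 without clones 1, 2 and 4, 1814 without washed clone 1 and 717 without untreated clone 1. The call of Spi1 was lost without clone 2 (adjusted p = 0.0816 and 0.0975 in the first and second comparisons) and without clone 4 (0.103 and 0.0997). Tal1 and the other genes at 0 are limited by depth: 3 counts are 0.265 to 0.550 CPM.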
